A study of Mus musculus with 16 samples.

Results

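A set of 10 genes of type 2 immunity was followed across 16 mouse lung arrays: the cytokines Il4, Il5, Il9 and Il13, the alarm cytokines Il25, Il33 and Tslp, and the receptor genes Il4ra, Il13ra1 and Il13ra2. They were taken from the array's probe annotation as probe sets that carry 1 of these symbols alone. All 10 were found, each with 1 probe set, among 19938 genes with a single symbol. Whole lung RNA of 4 groups of mice was measured, with 4 arrays per group. Vldlr knockout (KO) mice, which lack the very low density lipoprotein receptor, received house dust mite (HDM) or saline, and so did wild-type (WT) mice of the strain B6129SF2/J. Both were given through the nose in 10 µl, with 25 µg of HDM per dose, on 5 days of the week for 6 weeks, and saline was the control. The labels give the strain of the WT mice only, so genotype and strain background cannot be told apart, and they give no age, sex or number of animals behind an array. Arrays are described there as biological replicates, and p-values measure the spread between them.

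Type 2 immunity is the branch of the immune response that drives allergic airway disease. In it, damaged or stimulated epithelium releases the alarm cytokines IL-33, IL-25 and TSLP, which act on group 2 innate lymphoid cells, T helper 2 cells, mast cells and dendritic cells. The lymphocytes and mast cells among them make IL-4, IL-5, IL-9 and IL-13. IL-5 sustains eosinophils, IL-9 acts on mast cells, and IL-4 and IL-13 signal through receptors built on the IL-4 receptor alpha chain and the transcription factor STAT6, which switch on mucus, chemokine and macrophage genes. IL-13 receptor alpha 2, by contrast, binds IL-13 tightly and is best known as a decoy that removes it.

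Promoter sequences are shown for the genes that rose with HDM in KO lungs and for Il13 and Il4ra, which were higher in KO than in WT lungs under HDM, so that the letters upstream of these genes can be read beside their values. Each is the stretch of 250 bases before the most upstream start of the gene in RefSeq (GRCm38.p6), 5′ to 3′ on the gene's strand. Capitals mark matches on either strand to the STAT6-type pattern (TTC and GAA with 4 bases between them), to the related STAT pattern (TTC and GAA with 3 bases between them), or to the GATA pattern (GATA with A or T before it and A or G after it).
Il4, chr11:53618666-53618915, minus strand: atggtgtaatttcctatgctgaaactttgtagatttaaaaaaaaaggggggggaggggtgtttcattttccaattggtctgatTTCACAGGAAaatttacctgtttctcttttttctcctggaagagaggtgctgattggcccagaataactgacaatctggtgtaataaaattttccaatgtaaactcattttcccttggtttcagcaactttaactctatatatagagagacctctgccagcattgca
Il5, chr11:53720544-53720793, plus strand: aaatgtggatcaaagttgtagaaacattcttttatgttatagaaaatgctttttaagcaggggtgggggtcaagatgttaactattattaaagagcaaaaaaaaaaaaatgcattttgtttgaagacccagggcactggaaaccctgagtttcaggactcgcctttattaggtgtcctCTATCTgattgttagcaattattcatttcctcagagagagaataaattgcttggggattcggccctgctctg
Il13, chr11:53634703-53634952, minus strand: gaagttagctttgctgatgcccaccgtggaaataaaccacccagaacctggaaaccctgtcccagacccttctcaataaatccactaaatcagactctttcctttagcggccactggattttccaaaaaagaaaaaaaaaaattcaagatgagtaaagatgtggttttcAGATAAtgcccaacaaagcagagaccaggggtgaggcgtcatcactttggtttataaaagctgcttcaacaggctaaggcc
Il33, chr19:29924863-29925112, plus strand: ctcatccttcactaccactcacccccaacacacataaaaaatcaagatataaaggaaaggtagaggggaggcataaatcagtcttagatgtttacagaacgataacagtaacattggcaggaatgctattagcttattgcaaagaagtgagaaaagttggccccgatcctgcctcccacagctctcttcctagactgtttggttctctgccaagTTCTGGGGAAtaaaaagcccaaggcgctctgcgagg
Il4ra, chr7:125552021-125552270, plus strand: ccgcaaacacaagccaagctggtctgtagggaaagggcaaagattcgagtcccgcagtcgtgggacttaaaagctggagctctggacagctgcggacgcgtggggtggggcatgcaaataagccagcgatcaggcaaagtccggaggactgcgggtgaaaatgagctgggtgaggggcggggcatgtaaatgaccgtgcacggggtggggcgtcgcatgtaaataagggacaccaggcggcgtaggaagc
Il13ra2, chrX:147429193-147429442, minus strand: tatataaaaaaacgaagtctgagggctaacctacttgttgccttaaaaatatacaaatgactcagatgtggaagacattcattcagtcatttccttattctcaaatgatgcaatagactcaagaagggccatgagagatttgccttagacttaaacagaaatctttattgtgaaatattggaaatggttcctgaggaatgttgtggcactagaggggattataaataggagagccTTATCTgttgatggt
The Il4 window held 1 STAT6-type match, TTCACAGGAA, which begins 167 bases before the start, and the Il33 window held TTCTGGGGAA at 36 bases. The Il5, Il13 and Il13ra2 windows each held 1 GATA match, at 72, 81 and 15 bases before the start. Windows of 8 of the 10 genes were used, and the STAT6-type pattern was in 3 of them (Il4, Il9 and Il33), the GATA pattern in 3 and the related STAT pattern in 0. Of 32851 RefSeq windows of the same length, 5.85% held the STAT6-type pattern, 26.5% the GATA pattern and 7.02% the related STAT pattern. The Il4ra window held 0 matches and each other window shown held 1, so no matches overlapped. The matches describe letters and are not evidence of binding.

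Values are log2 RMA levels, and levels of different genes do not give their relative amounts of RNA, since their probes differ. Ranks of gene levels below place array signal only. A gene passed a comparison when its adjusted p was under 0.05 in a limma fit across all 19938 genes (two-sided, Benjamini-Hochberg), and SE is the standard error of the log2 change in that fit. The deposited table has no detection call. Il33, Il4ra and Il13ra1 had mean levels above the median gene, whereas Il5, Il9 and Il13ra2 lay below the 25th percentile of gene means. All values were in the range of 3.05 to 14.7, and array medians were between 8.78 and 8.85. Vldlr was at 9.40 to 9.91 on KO HDM arrays and 10.27 to 10.92 on WT HDM arrays, and at 9.77 to 9.90 on KO saline arrays and 10.50 to 10.75 on WT saline arrays, so the arrays of the genotypes did not overlap. KO arrays still read above the median gene mean of 9.11, and whether the Vldlr probes lie inside the deleted stretch is not known here, which limits what this value checks. KO HDM 4 stood apart from its group, at 7.43 on the first principal component of all genes, against 20.01 to 23.83 for the other KO HDM arrays. WT HDM 1 and 2 lay apart from WT HDM 3 and 4 there, at 0.42 and -0.06 against 13.99 and 11.70, and WT HDM 2 was lowest of all arrays on the second component (-27.1) and had the lowest array weight (0.418, against 0.491 for KO HDM 4). WT saline 2 and 3 carried more mast cell and IL-4 and IL-13 target signal than WT saline 1 and 4, described with those lists.

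**Figure D1:**
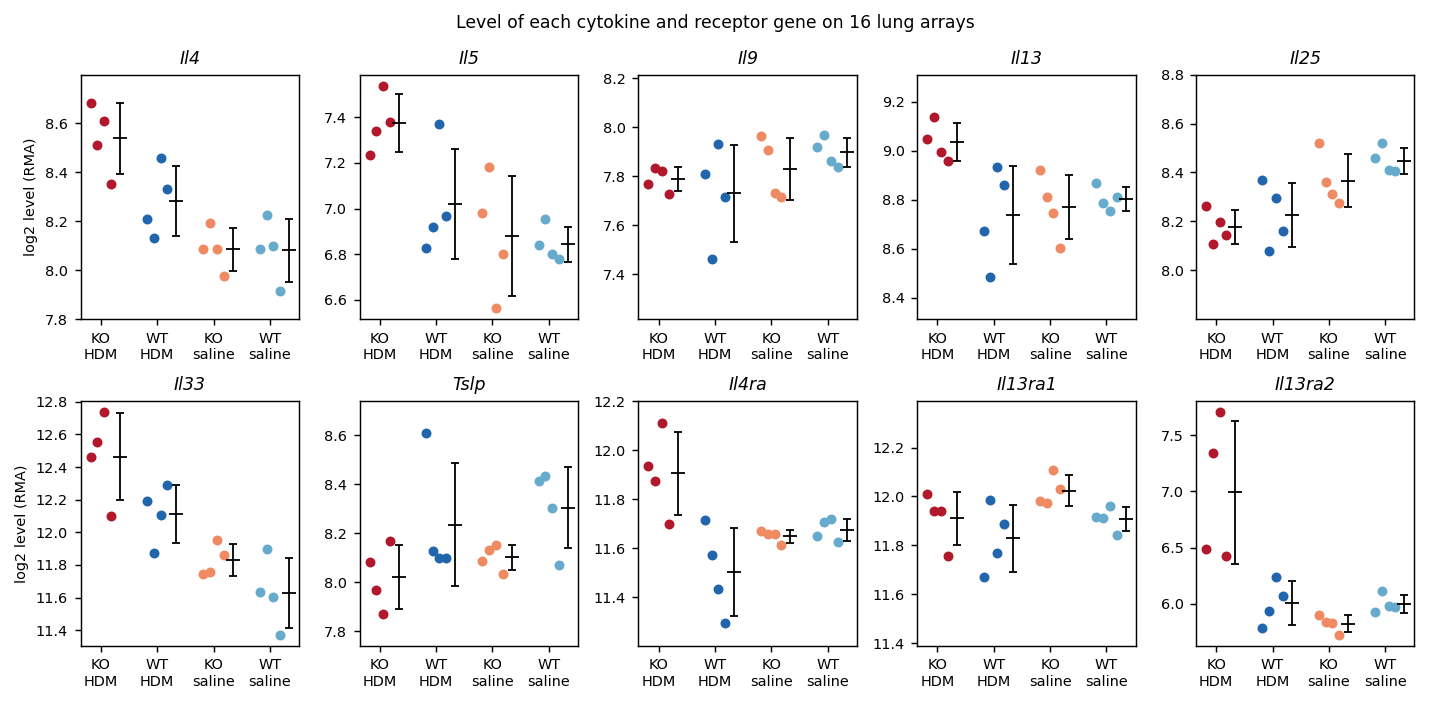
Log2 level (RMA) of the 10 genes on each array, in one panel per gene with its own axis. Points are arrays in order of replicate number, from left KO HDM, WT HDM, KO saline and WT saline, and the black mark is the mean with its SD (n = 4). Il13ra2 was highest on KO HDM 2 and 3, at 7.34 and 7.71, and Il33 was lower on all 8 saline arrays than on all KO HDM arrays.

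In KO lungs, HDM raised 4 of the 10 genes (Il33, Il4, Il5 and Il13ra2) and lowered 0. Across all genes 8.84% passed in this comparison, 4.96% higher and 3.88% lower. In WT lungs, 1 gene rose (Il33) and 1 fell (Il25), where 17.6% of all genes passed, 7.86% higher and 9.72% lower. Under HDM, 3 of the 10 genes were higher in KO than in WT lungs (Il13, Il4ra and Il13ra2) and 0 were lower, beside 11.7% of all genes, 5.84% higher and 5.83% lower. Without WT HDM 4, 0 genes were called in WT lungs by limma, where Il33 and Il25 then changed by 0.43 and -0.20, and without KO HDM 4 or WT HDM 3, 5 were called between genotypes under HDM. The median log2 change over the 10 genes was 0.26 in KO and -0.068 in WT lungs for HDM against saline, beside -0.028 and -0.051 over all genes. Between genotypes it was 0.28 under HDM and -0.03 under saline, beside 0.02 and -0.0065 over all genes. The comparisons of HDM with saline share arrays with those of genotype, so calls of a gene in both are not independent.

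**Figure D2:**
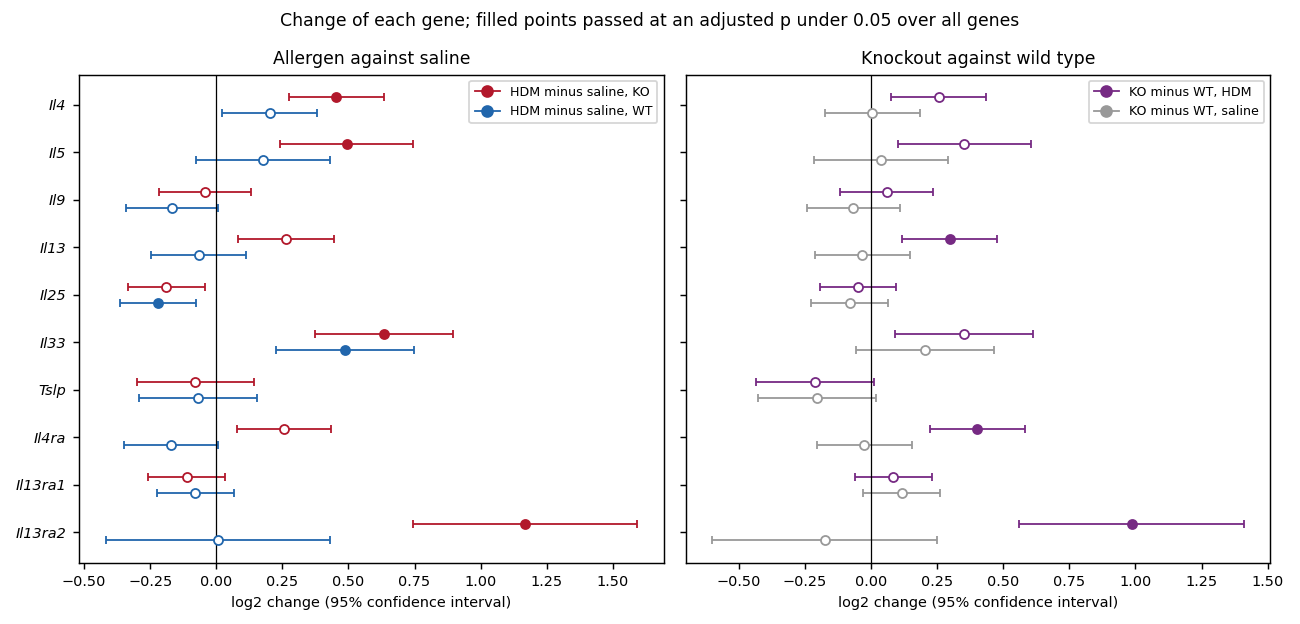
Log2 change of each gene with its 95% confidence interval, for HDM minus saline on the left (KO above WT) and for KO minus WT on the right (HDM above saline). Filled points passed at an adjusted p under 0.05, and the KO points of Il4, Il5, Il33 and Il13ra2 on the left lie between 0.45 and 1.17.

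Among the alarm cytokines, Il33 rose with HDM in both genotypes. IL-33 is stored in the nucleus of epithelial and stromal cells and acts through the receptor ST2. Its level was 12.46, 12.56, 12.74 and 12.10 on KO HDM arrays 1 to 4, and 11.75, 11.76, 11.96 and 11.86 on KO saline arrays. All KO HDM arrays lay above all KO saline arrays, and KO HDM 4 was the lowest of its group. Arrays of these groups did not overlap, in either direction, for 14.0% of all genes. The rise in KO lungs was 0.63 (1.55-fold; SE 0.12 with 4 arrays per group, limma adjusted p = 0.00381). On WT HDM arrays it was 12.19, 11.87, 12.11 and 12.29, against 11.63, 11.90, 11.60 and 11.37 on WT saline arrays. WT HDM 2 lay just under WT saline 2, and apart from that pair the WT groups did not overlap. The rise in WT lungs was 0.49 (1.40-fold, SE 0.12, adjusted p = 0.0151). Without WT HDM 4 it was 0.43 with an adjusted p = 0.0505 by limma.

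The rises of Il33 in the 2 genotypes were not shown to differ, with an interaction (HDM change in KO minus that in WT) of 0.15 and a 95% interval of -0.22 to 0.52 (limma adjusted p = 0.724). The order of its group means was KO HDM, WT HDM, KO saline, WT saline. Levels in KO HDM and WT HDM lungs averaged 12.46 ± 0.27 and 12.11 ± 0.18 (SD, n = 4 each), a difference of 0.35 that did not pass (adjusted p = 0.0746). Without KO HDM 4 the difference was 0.47 and passed (adjusted p = 0.00761). KO saline and WT saline lungs averaged 11.83 ± 0.099 and 11.63 ± 0.21, and this difference did not pass either (0.20, adjusted p = 0.785).

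Il25, which encodes a cytokine of tuft cells also called IL-17E, was lower under HDM and passed in WT lungs. In KO lungs its level was 8.26, 8.11, 8.20 and 8.14 under HDM and 8.52, 8.36, 8.31 and 8.27 under saline. The arrays did not overlap, with KO HDM 1 just below KO saline 4. The change was -0.19 (SE 0.069 with 4 arrays per group, limma adjusted p = 0.0991) and did not pass. In WT lungs the level was 8.37, 8.08, 8.30 and 8.16 under HDM and 8.46, 8.52, 8.41 and 8.41 under saline. Every WT HDM array lay below every WT saline array, and WT HDM 1 came closest. Il25 fell in WT lungs, by 0.22 on the log2 scale (SE 0.069, adjusted p = 0.0355). The change did not pass without WT saline 1 (-0.22), 2 (-0.20) or 3 (-0.23), without WT HDM 2 (-0.17) or 4 (-0.20), or after quantile normalization (-0.14, adjusted p = 0.106). Arrays of the groups did not overlap for 14.0% of all genes in the KO comparison and 23.5% in the WT comparison. The interaction was 0.033 (95% interval -0.17 to 0.24, adjusted p = 0.899).

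Tslp, the third alarm cytokine gene, whose product acts on dendritic cells and lymphocytes, passed in none of the 5 comparisons by limma, and its unadjusted p was under 0.05 in 0 of them. It stood at 8.08, 7.97, 7.87 and 8.17 on KO HDM arrays and 8.09, 8.13, 8.15 and 8.04 on KO saline arrays. On WT HDM arrays it was 8.61, 8.13, 8.10 and 8.10, and on WT saline arrays 8.41, 8.43, 8.30 and 8.07. WT HDM 1 was far above the other 3 arrays of its group, and the groups overlapped throughout. The changes with HDM were -0.079 in KO lungs (95% interval -0.30 to 0.14) and -0.07 in WT lungs (-0.29 to 0.15). KO minus WT was -0.21 under HDM (adjusted p = 0.212) and -0.20 under saline (adjusted p = 0.703). Without WT HDM 1, KO minus WT under HDM was -0.087 and the change with HDM in WT lungs was -0.20, and neither passed.

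The cytokine genes of type 2 lymphocytes differed in their response. Il4, which drives T helper 2 differentiation and the switch to IgE, had levels of 8.68, 8.51, 8.61 and 8.35 on KO HDM arrays and 8.09, 8.19, 8.09 and 7.98 on KO saline arrays. The lowest KO HDM array was above the highest KO saline array. Il4 rose in KO lungs by 0.45 (1.37-fold; SE 0.085 with 4 arrays per group, limma adjusted p = 0.00294), and it passed under each alternative tried for this change. In WT lungs it was 8.21, 8.13, 8.46 and 8.33 under HDM and 8.09, 8.23, 8.10 and 7.91 under saline. Here the groups overlapped, and the change of 0.20 did not pass (adjusted p = 0.104), whereas after quantile normalization it was 0.29 and passed (adjusted p = 0.0146). KO minus WT under HDM was 0.26 (adjusted p = 0.0603), and passed without KO HDM 4 (0.32) and without WT HDM 3 (0.31). The interaction was 0.25 (95% interval -0.0023 to 0.51, adjusted p = 0.324).

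Il5, the growth factor of eosinophils, lies near Il4 and Il13 on the same chromosome. Its level was 7.23, 7.34, 7.54 and 7.38 on KO HDM arrays and 6.98, 7.18, 6.56 and 6.80 on KO saline arrays. KO saline 3 was the lowest of all 16 arrays, and the groups did not overlap. Il5 rose by 0.49 in KO lungs (1.41-fold, SE 0.12, limma adjusted p = 0.0157), and did not pass without KO saline 3 (0.39, adjusted p = 0.0507) or without KO HDM 3 (0.44, adjusted p = 0.0598). WT HDM arrays held 6.83, 6.92, 7.37 and 6.97, and WT saline arrays 6.84, 6.95, 6.80 and 6.78. WT HDM 3 stood above the rest of its group, the groups overlapped, and the change of 0.18 did not pass (adjusted p = 0.294) and was 0.061 without WT HDM 3. KO minus WT under HDM was 0.35 (adjusted p = 0.0651) and passed without WT HDM 3 (0.47, adjusted p = 0.0125). The interaction was 0.32 (95% interval -0.042 to 0.67, adjusted p = 0.384).

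Il13, whose product acts on airway epithelium, smooth muscle and macrophages, was higher in KO than in WT lungs under HDM. It was at 9.05, 9.14, 9.00 and 8.96 on KO HDM arrays and at 8.67, 8.48, 8.93 and 8.86 on WT HDM arrays. The highest WT HDM array, number 3, was just below the lowest KO HDM array, number 4. KO HDM and WT HDM arrays did not overlap, in either direction, for 10.8% of all genes. The difference was 0.30 (1.23-fold; SE 0.086 with 4 arrays per group, limma adjusted p = 0.0329). It did not pass without KO HDM 1 (0.29), 2 (0.26) or 3 (0.31) or without WT HDM 1 (0.28) or 2 (0.21), and adjusted p-values then reached 0.11, nor did it with array weights (0.24, adjusted p = 0.052). On KO saline arrays Il13 was at 8.92, 8.81, 8.75 and 8.60, below all KO HDM arrays, and on WT saline arrays at 8.87, 8.79, 8.75 and 8.81. KO HDM and KO saline arrays did not overlap, in either direction, for 14.0% of all genes. The change with HDM was 0.26 in KO lungs (adjusted p = 0.0637) and -0.066 in WT lungs (adjusted p = 0.596), neither of which passed. In KO lungs it passed without KO HDM 4 (0.29), without KO saline 1 (0.31), with array weights (0.24) and after quantile normalization (0.27). The interaction of 0.33 did not pass (95% interval 0.075 to 0.59, adjusted p = 0.19).

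Il9, which encodes a mast cell growth and activation factor, passed in none of the 5 comparisons by limma, with an unadjusted p under 0.05 in 0 of them. Its 16 values lay in a narrow range, from 7.46 on WT HDM 2 to 7.97 on WT saline 2. Group means were 7.79 ± 0.049 in KO HDM, 7.73 ± 0.20 in WT HDM, 7.83 ± 0.13 in KO saline and 7.90 ± 0.059 in WT saline lungs (SD, n = 4 each). The 95% interval of the HDM change was -0.22 to 0.13 in KO lungs and -0.34 to 0.0075 in WT lungs.

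Of the receptor genes, Il4ra encodes the signalling chain shared by the receptors of IL-4 and IL-13. Its level was 11.94, 11.87, 12.11 and 11.70 on KO HDM arrays and 11.71, 11.57, 11.44 and 11.29 on WT HDM arrays. KO HDM 4 and WT HDM 1 met at 11.70 and 11.71, and the other arrays of the groups did not overlap. Il4ra was higher in KO lungs by 0.40 (1.32-fold; SE 0.085 with 4 arrays per group, limma adjusted p = 0.00745). Saline arrays were close together, at 11.67, 11.66, 11.66 and 11.61 in KO and 11.65, 11.71, 11.72 and 11.62 in WT lungs. The HDM change had opposite signs in the 2 genotypes and passed in neither, at 0.26 in KO lungs (adjusted p = 0.069) and -0.17 in WT lungs (adjusted p = 0.156). All KO HDM arrays lay above all KO saline arrays, and arrays of these groups did not overlap, in either direction, for 14.0% of all genes. Without KO HDM 4 the KO change was 0.33 and passed (adjusted p = 0.0144), and it passed too with the replicate number as a block (adjusted p = 0.0435). With array weights both changes passed, at 0.30 in KO lungs (adjusted p = 0.0178) and -0.23 in WT lungs (adjusted p = 0.0391). The interaction was 0.43 (SE 0.12, 95% interval 0.18 to 0.68, adjusted p = 0.0975), and passed without KO HDM 4 (0.50, adjusted p = 0.0197) and without WT HDM 1 (0.50, adjusted p = 0.039).

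Il13ra1, whose product pairs with the IL-4 receptor alpha chain to form the signalling receptor of IL-13, passed in none of the 5 comparisons by limma, and its unadjusted p was under 0.05 in 0 of them. Its means were 11.91 ± 0.11 in KO HDM, 11.83 ± 0.14 in WT HDM, 12.02 ± 0.063 in KO saline and 11.91 ± 0.048 in WT saline lungs (SD, n = 4 each). The HDM change was -0.11 in KO lungs (95% interval -0.26 to 0.034) and -0.079 in WT lungs (-0.23 to 0.066). Under saline all KO arrays lay above all WT arrays, by a mean of 0.12 (adjusted p = 0.776), which was so, in either direction, for 6.54% of all genes.

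Il13ra2, the decoy receptor gene, had the largest change of the 10 in KO lungs under HDM. Its level was 6.49, 7.34, 7.71 and 6.43 on KO HDM arrays, against 5.90, 5.84, 5.83 and 5.73 on KO saline arrays. KO HDM 2 and 3 were well above KO HDM 1 and 4, and all 4 were above every other array of the series. Il13ra2 rose by 1.17 (2.25-fold; SE 0.20 with 4 arrays per group, limma adjusted p = 0.00157), and passed under each alternative in which it was tested. WT HDM arrays were at 5.78, 5.94, 6.24 and 6.07 and WT saline arrays at 5.93, 6.12, 5.98 and 5.98. These overlapped, and the change was 0.0062 with a 95% interval of -0.42 to 0.43 (adjusted p = 0.986).

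Under HDM, Il13ra2 averaged 6.99 ± 0.63 in KO and 6.01 ± 0.19 in WT lungs (SD, n = 4 each), a difference of 0.99 (1.98-fold, SE 0.20, limma adjusted p = 0.00664). Under saline the order was the other way round, with every KO array below every WT array, but the difference of -0.18 did not pass (adjusted p = 0.93). Arrays of these groups did not overlap, in either direction, for 6.54% of all genes. The interaction was 1.16 (SE 0.29, 95% interval 0.56 to 1.76, adjusted p = 0.0624) and did not pass, although its interval lay above 0. It passed without KO HDM 1 (1.33, adjusted p = 0.0418), without KO HDM 4 (1.35, adjusted p = 0.00875) and without WT HDM 3 (1.24, adjusted p = 0.045), and with the replicate number as a block (adjusted p = 0.0428). A fit of only the KO HDM and WT HDM arrays left the difference under HDM short of the threshold (adjusted p = 0.0685), as it did those of Il4ra (adjusted p = 0.0703) and Il13 (adjusted p = 0.109).

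Without allergen, 0 of the 10 genes differed between KO and WT lungs by limma, and 0 had an unadjusted p under 0.05. Across all genes 0.231% passed, 0.0903% higher and 0.140% lower. The widest difference was Tslp, at -0.20, and that of Il33 was 0.20 in the other direction. For the interaction, which asks whether the allergen response depended on genotype, 0 of the 10 passed, beside 0.802% of all genes. At the looser level of an unadjusted p under 0.05 there were 3 (Il13, Il4ra and Il13ra2). That count cannot be set against the 0.802%, since many more genes reach the looser level. Il4 fell just short of it and ranked 3195 among the 19938 genes, so somewhat fewer than 3195 of all genes reached it. Whether the 3 exceed that share was not tested. Without KO HDM 4, the array on which Il4, Il13, Il33, Il4ra and Il13ra2 were lowest of their group, 2 passed (Il4ra and Il13ra2).

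The genes of the set varied together to different degrees. Over the 16 arrays Pearson's r was 0.89 between Il4 and Il33, 0.82 between Il4 and Il5, 0.78 between Il5 and Il13ra2 and 0.77 between Il33 and Il13ra2. With group means removed these were 0.63, 0.49, 0.43 and 0.59. Il25 and Il33 ran in opposite directions over all arrays (-0.61) but not within groups (0.24). The highest correlations within groups were those of Il9 with Il13 (0.81, and 0.48 over all arrays) and of Il9 with Il25 (0.77, and 0.75 over all arrays), although Il9 passed in no comparison. These correlations describe arrays that share groups and normalization.

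The genes whose profile over the 16 arrays was most like that of Il13ra2 were Timp1 (r = 0.97), an inhibitor of matrix metalloproteinases, Il31ra (r = 0.97), a receptor chain for IL-31, and the collagen chain gene Col6a5 (r = 0.96). With group means removed, r was 0.92, 0.90 and 0.90. Timp1 was at 10.05, 11.49, 11.86 and 9.71 on KO HDM arrays, with the same pair, 2 and 3, above the other pair. For Il33 the nearest profiles were F7, the coagulation factor VII gene (r = 0.97), the sodium and glucose transporter gene Slc5a1 (r = 0.96) and the transcription factor gene Tfec (r = 0.96). Il4 was most like Cd300lb (r = 0.96), a receptor of myeloid cells, Ptafr (r = 0.95), the receptor of platelet-activating factor, and the transporter gene Slc37a2 (r = 0.95). Il13 was most like Tpsb2 (r = 0.92), a mast cell tryptase, Hcst (r = 0.91), an adaptor of lymphocyte receptors, and Psrc1 (r = 0.91). Il5 was most like Moxd1 (r = 0.89), Atp6v0a4 (r = 0.86) and Chil5 (r = 0.86). Il4ra was most like Golt1b (r = 0.93), Tspan5 (r = 0.92) and Pgf (r = 0.92), and Il25 was most like Cntn2 (r = 0.91), Wnt5b (r = 0.91) and Erich5 (r = 0.90).

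**Figure D3:**
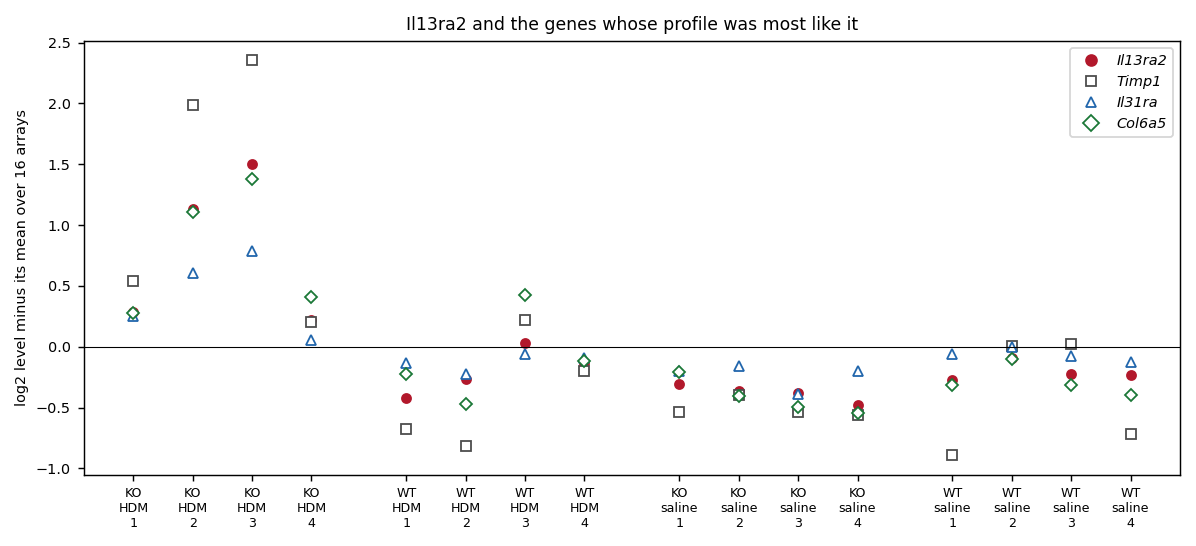
Log2 level minus its mean over the 16 arrays, per array, for Il13ra2 (filled) and for Timp1, Il31ra and Col6a5, the 3 genes with the highest correlation with it. All 4 genes were highest on KO HDM 2 and 3, where Il13ra2 stood at 7.34 and 7.71.

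Some other chains of the same receptors rose with HDM. Of 9 measured receptor chains and co-receptors, 5 rose in KO lungs and 4 in WT lungs, and 0 fell in either. Of all genes 4.96% rose in KO and 7.86% in WT lungs. The list medians were 0.65 and 0.19, beside -0.028 and -0.051 over all genes. Il2rg and the IL-33 receptor chain gene Il1rl1 were not used here, and Il1rl1 is also missing from the group 2 innate lymphoid markers below. Il5ra, the chain that binds IL-5, rose by 1.71 in KO lungs (limma adjusted p = 0.000249) and by 1.30 in WT lungs (adjusted p = 0.00255). Csf2rb, the signalling chain it shares with the receptors of IL-3 and GM-CSF, rose by 0.71 and 0.68 in KO and WT lungs. Il7r, which forms the TSLP receptor with Crlf2, rose by 0.94 and 0.68. Il17rb, the chain that binds IL-25, rose in KO lungs by 0.78 (SE 0.086, adjusted p = 2.88e-05), with 0.10 in WT lungs (adjusted p = 0.434) and an interaction of 0.68 that passed (SE 0.12, adjusted p = 0.0175). Without WT saline 2 and 3 that interaction was 0.63 and did not pass (adjusted p = 0.118). Its ligand gene Il25 was, as given above, lower with HDM in both genotypes, and passed in WT lungs. Under HDM 3 of the 9 were higher in KO than in WT lungs, namely Il17rb (0.61), Il9r (0.34), the IL-9 receptor chain, and Crlf2 (0.24). Of all genes 5.84% were higher there.

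Genes that IL-4 and IL-13 are known to switch on rose with HDM in 15 of 20 cases in KO lungs and fell in 0, with a median change of 1.12. In WT lungs 10 rose and 1 fell, with a median of 0.53. Over all genes the medians were -0.028 and -0.051, and 4.96% rose in KO and 7.86% in WT lungs. The largest changes in KO lungs were those of the chitinase-like gene Chil4 (4.22), the goblet cell gene Clca1 (3.38), the arginase gene Arg1 (3.02) and the eotaxin gene Ccl24 (2.94). In WT lungs they were those of Clca1 (2.64), Chil4 (2.23), the lipoxygenase gene Alox15 (1.68) and the mucin gene Muc5ac (1.42), and Postn fell by 0.25 on the log2 scale. Chil4 has a near copy, Chil3, whose transcripts its probes may also bind. Under HDM 8 of the 20 were higher in KO lungs and 0 lower, beside 5.84% and 5.83% of all genes. The interaction was passed by 3, namely Ccl24 (3.61), Arg1 (2.71) and Ccl11 (1.17), beside 0.802% of all genes. Mean target levels on WT saline 2 and 3 were 9.95 and 9.81, against 9.19 and 9.49 on WT saline 1 and 4 and 9.39 to 9.52 on KO saline arrays. Without WT saline 2 and 3, 10 targets rose and 0 fell in WT lungs, with a median of 0.995, and 0 passed the interaction by limma, where Ccl24 was at 3.02 (adjusted p = 0.0879), Arg1 at 2.13 (adjusted p = 0.162) and Ccl11 at 0.99 (adjusted p = 0.224). Without KO HDM 4, 8 targets passed the interaction, and without WT HDM 2, 1 did. The share of all genes passing with arrays left out is not given here, so these counts cannot be read as particular to the targets. The cytokine genes themselves changed by 0.45 (Il4, which passed) and 0.26 (Il13, which did not) in KO lungs. The list was written with earlier results of these data known.

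Of 18 signalling genes measured, 2 rose in KO lungs, Jak2 (0.44) and Stat5a (0.22), and 0 fell. In WT lungs 3 rose and 1 fell, with the kinase gene Jak2 at 0.36, Socs2 at 0.29, Stat6 at 0.18 and the adaptor gene Myd88, which carries the IL-33 signal, at -0.33. Over all genes 8.84% passed in KO and 17.6% in WT lungs, shares near those of the 18. The list medians were 0.087 in KO and -0.010 in WT lungs, beside -0.028 and -0.051 over all genes. Stat6 did not pass in KO lungs (0.086, limma adjusted p = 0.403), nor did the inhibitor gene Socs1 in KO (0.17) or WT lungs (-0.17). Of 11 transcription factor genes of type 2 lymphocytes, 4 rose in KO lungs. Bhlhe41 (0.53) had the largest change, followed by Gata3 (0.40), the master regulator of T helper 2 cells, Junb (0.28) and Maf (0.20), an activator of Il4. In WT lungs 5 rose, with the largest changes in Bhlhe41 (1.32), Pparg, Bcl6 (0.35) and Maf (0.31), and Gata3 did not pass (0.25, adjusted p = 0.0688). Under HDM 0 of the 11 were higher in KO than in WT lungs and 3 were lower, namely Bhlhe41 (-0.57), Pparg (-0.40) and Bcl6 (-0.27). Over all genes 5.84% were higher and 5.83% lower. Bhlhe41 is also in the clock gene list below and Pparg in the alveolar macrophage list, so their values are not particular to lymphocytes. Gata3 (-0.030) and Maf (-0.022) did not pass between genotypes under HDM. Among 8 other cytokine genes, Il10 rose in KO lungs (0.53, adjusted p = 0.0305) and none passed in WT lungs by limma. There 1 of the 8 had an unadjusted p under 0.05, a level that at least 6935 of the 19938 genes reached. Whether that 1 falls short of this share was not tested. Under HDM Il10 and Il21 were higher in KO than in WT lungs, by 0.71 and 0.49.

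**Figure D4:**
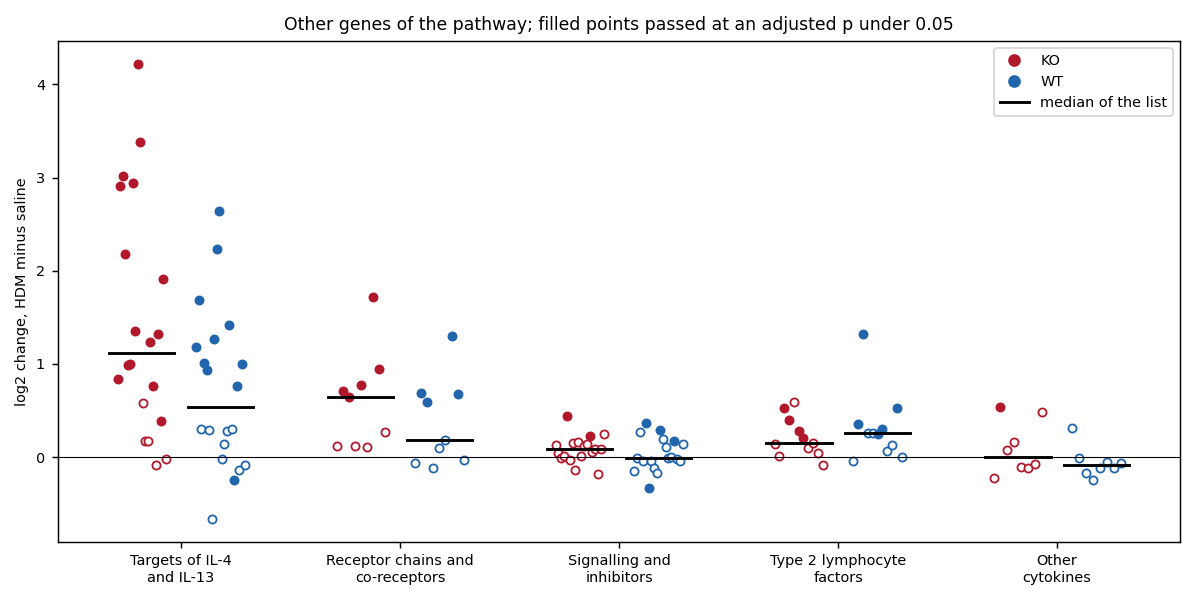
Log2 change with HDM of the other genes of the pathway, by list, with KO in red to the left of WT in blue. Filled points passed at an adjusted p under 0.05, black lines are list medians, and the target list has medians of 1.12 in KO and 0.53 in WT lungs.

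In whole lung, more cells of a type and more RNA per cell cannot be told apart. Markers of cells that carry or make these cytokines moved on the same arrays, and their part in the changes above was not tested. Beside the marker counts, 4.96% of all genes were higher and 3.88% lower with HDM in KO lungs, and 7.86% and 9.72% in WT lungs. Under HDM 5.84% of all genes were higher in KO than in WT lungs and 5.83% lower. Eosinophil markers, which include Il5ra, rose in 5 of 7 cases in KO lungs and 3 of 7 in WT lungs. Their mean log2 level per array was 9.41 to 10.12 in KO HDM and 9.00 to 9.43 in WT HDM lungs, and 8.40 to 8.51 in KO saline and 8.41 to 8.78 in WT saline lungs. Markers of mast cells and basophils, which can make IL-4 and IL-13, rose in 6 of 14 cases in KO lungs and 1 of 14 in WT lungs, with array means of 8.73 to 9.26 in KO HDM, 8.10 to 8.83 in WT HDM, 8.01 to 8.16 in KO saline and 8.10 to 8.50 in WT saline lungs. WT saline 2 and 3 had the highest values of their group. Between genotypes under HDM, 3 of the 7 eosinophil markers were higher in KO lungs and 0 lower, and 4 of the 14 mast cell and basophil markers were higher and 1 lower.

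Markers of group 2 innate lymphoid cells, a main source of Il5 and Il13, rose in 3 of 6 measured cases in KO lungs and fell in 1, and rose in 0 and fell in 1 in WT lungs. The 3 that rose were Klrg1 (0.90), Il2ra (0.80) and Gata3, and Thy1 fell (-0.24). Gata3 also regulates T helper 2 cells, as given above, so its value is not particular to innate lymphoid cells. The list mean was 9.54 to 9.73 in KO HDM and 9.25 to 9.39 in WT HDM lungs, and 9.23 to 9.44 in KO saline and 9.17 to 9.36 in WT saline lungs, so the KO HDM arrays stood above all others. T cell markers, a list of 9 measured, did not shift in the same way: 2 fell in KO lungs, and 1 rose (Cd4, 0.36) and 2 fell in WT lungs. Cd8a fell in both (-0.40 and -0.34). The T cell array means were 9.43 to 9.55 in KO HDM, 9.37 to 9.61 in WT HDM, 9.43 to 9.66 in KO saline and 9.45 to 9.56 in WT saline lungs. Between genotypes under HDM, 1 of the 9 T cell markers was higher in KO lungs (Icos, 0.79) and 1 lower (Trat1). Of the 6 markers of group 2 innate lymphoid cells, 2 were higher (Klrg1, 1.01, and Il2ra, 0.66) and 0 lower.

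Of 9 markers of alveolar type 2 cells, which hold much of the lung's IL-33 in mice, 0 rose and 1 fell in KO lungs, while 2 (Sftpd, 0.59, and Lamp3, 0.45) rose and 1 fell in WT lungs. Their array means were 12.90 to 13.10 in KO HDM and 13.10 to 13.20 in WT HDM lungs. In KO saline lungs they were 13.08 to 13.14, and in WT saline lungs 13.01 to 13.04. All WT HDM arrays lay above all WT saline arrays. KO HDM 4 (13.10) lay within the WT HDM range, and KO HDM 1, 2 and 3 lay below it. The part of these cells in the Il33 values was not tested. Tuft cell markers, a list of 9, rose in 1 case (Dclk1) and fell in 1 (Gnat3) in KO lungs, and fell in 1 in WT lungs (Trpm5, -0.21), beside the lower Il25. Club cell markers fell in 5 of 6 cases in KO lungs and rose in 1 of 6 in WT lungs, and fibroblast markers rose in 3 of 8 and fell in 2 in KO lungs and fell in 1 in WT lungs. Alveolar macrophage markers rose in 2 of 7 cases in KO and 4 of 7 in WT lungs. Thymocyte markers passed in 0 of 6 cases in either genotype by limma, with an unadjusted p under 0.05 in 2 in KO and 4 in WT lungs. Of the 19938 genes, at least 4092 in KO and 6935 in WT lungs reached that looser level. Whether the thymocyte counts exceed those shares was not tested. Circadian clock genes rose in 1 of 13 cases in KO lungs, and rose in 7 and fell in 1 in WT lungs, with the clock output gene Dbp at 0.10 in KO and 1.37 in WT lungs. The WT HDM arrays had clock list means of 10.23 to 10.59, above all other groups, and the part of this in the values of the 10 genes on those arrays was not tested.

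**Figure D5:**
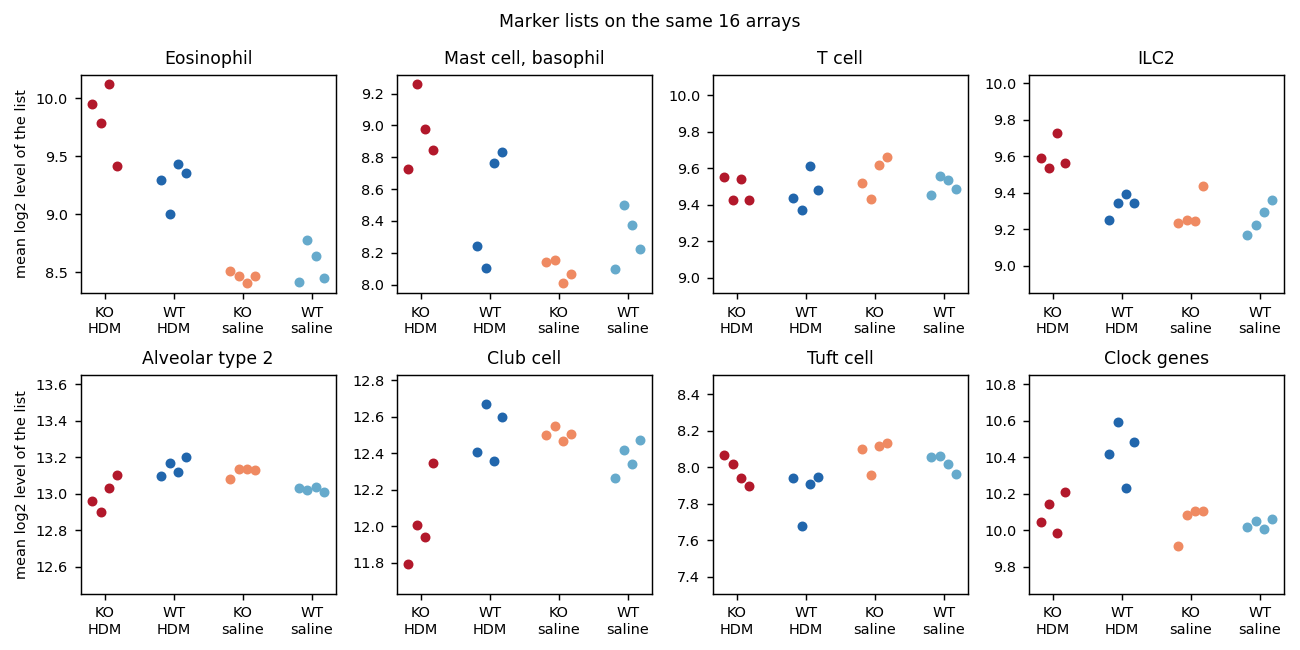
Mean log2 level per array of 8 marker lists, in one panel per list with its own axis. Points are arrays in order of replicate number, from left KO HDM, WT HDM, KO saline and WT saline. The eosinophil list lay between 9.41 and 10.12 on KO HDM arrays and between 9.00 and 9.43 on WT HDM arrays, and the T cell list lay between 9.37 and 9.66 on all 16 arrays.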

How the data were processed

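Whole lung RNA, 50 ng per sample, was hybridized to 16 Affymetrix arrays. The authors deposited 1 log2 value per probe set and array, made by RMA in Affymetrix Expression Console, per the submitters' processing notes. Neither versions nor a build nor filters are stated in them. RMA corrects background, equalizes arrays and summarizes probes, which compresses changes of dim genes, and, with no read depth to speak of, precision is limited by the number of arrays.

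Of 35556 probe sets, 21789 carried 1 gene symbol, 1621 several and 12146 none in the platform annotation. Only the first were used. Gene IDs of 21698 matched RefSeq (GRCm38.p6). For 999 genes with several probe sets the one with the highest mean was kept, leaving 19938 genes. One limma fit (version 3.58.1, R 4.3.3, two-sided, 12 residual degrees of freedom) held all 4 groups, with HDM against saline per genotype, KO against WT per treatment, and their interaction as 5 contrasts, each adjusted over all genes. It was tested on simulated data. The 10 genes and all lists were chosen with earlier results of these data known. Named from a list were up to 4 pathway genes and 2 markers with the largest passed change per comparison, with Stat6 and Socs1 throughout, and for each of the 10 genes that passed anywhere the 3 genes of highest r. Il1rl1, Il2rg, Areg, Jak3 and a few other listed genes were not used here. Alternatives were quantile and median scaling, filters on dim genes, array weights, a fit of 2 groups at a time, the replicate number as a block, and leaving out arrays. No pair of arrays was identical, and array correlations were between 0.980 and 0.995.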

Additional observations from a re-analysis of the deposited data

Results flagged for a closer look

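Of 40 group values examined (10 genes in 4 groups), 1 stood apart from its group. Tslp was at 8.61 on WT HDM 1 and between 8.10 and 8.13 on the other 3 WT HDM arrays, so the gap made up 0.943 of the group's range, above the critical value of Dixon's test for 4 samples. Chance alone flags about 1 group in 20.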

How the results depend on the processing

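The rises of Il4, Il33 and Il13ra2 in KO lungs passed under every alternative in which they were tested, with log2 changes of 0.40 to 0.52, 0.54 to 0.76 and 0.93 to 1.36. The number of the 10 genes called moved most. In place of 4 for HDM in KO lungs, 2 were called among genes above the 25th percentile of mean level and 1 among those above the 50th, which leave out 3 and 7 of the 10 by construction. The 50th percentile also left 1 called for HDM in WT lungs and 1 between genotypes under HDM. Array weights gave 4 for HDM in WT lungs (Il4 and Il4ra added) and 2 for the interaction, added Il13 and Il4ra for HDM in KO lungs and ended the call of Il13 between genotypes. Fits of 2 groups at a time gave 1 for HDM in WT lungs and 0 between genotypes under HDM. Leaving out WT saline 2 and 3 together, chosen for their mast cell signal, gave 1 (Il33) for HDM in WT lungs. Leaving out 1 array at a time gave 3 to 6 genes for HDM in KO lungs, 0 to 2 in WT lungs, 2 to 5 between genotypes under HDM, 0 to 0 under saline and 0 to 2 for the interaction. The cause of these shifts beyond what is stated was not tested. WT lungs had 0 without WT HDM 4, and 5 were called between genotypes under HDM without KO HDM 4 or without WT HDM 3.

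In alternatives chosen after seeing the data, the interaction of the IL-4 and IL-13 targets, with 3 called, had 0 without WT saline 2 and 3, and 1 to 8 with KO HDM 4 or WT HDM 2 left out. That of the receptor chains, with 1 called, had 0 without WT saline 2 and 3. The shares of all genes passing in these alternatives are not given here.

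With the replicate number as a block, 1 gene (Il13ra2) passed the interaction in place of 0. Correlations of the deviations of same-numbered arrays were -0.276 to 0.333 and in no comparison all above 0.1, so the numbers were not taken to pair samples. Arrays correlated best with their own number in 1 to 2 of 4 cases per comparison. The number 4 array had the lowest median of its group in all 4 groups, and shifting arrays to one median left the counts of called genes at 4, 2, 3, 0 and 0.

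Changes that turned sign had not passed and did not pass in either setting. Quantile normalization gave 0.0069 for Il9 with HDM in KO lungs, 0.014 for Tslp with HDM in WT lungs and -0.010 for the Il25 interaction. Array weights gave 0.006 for Il13 with HDM in WT lungs, and interactions of 0.0072 for Tslp and 0.026 for Il13ra1. Without WT saline 2 and 3 together, Il4ra differed by 0.013 between KO and WT saline lungs. With 1 array left out, the HDM change was -0.071 to 0.081 for Il13ra2 and -0.13 to 0.018 for Il13 in WT lungs, and -0.080 to 0.0032 for Il9 in KO lungs. KO minus WT under saline was -0.052 to 0.052 for Il4, -0.062 to 0.14 for Il5 and -0.084 to 0.022 for Il13, and under HDM -0.031 to 0.13 for Il9. Interactions were -0.058 to 0.12 for Tslp, -0.085 to 0.020 for Il13ra1 and -0.015 to 0.084 for Il25. RMA values carry no detection call, so signal over background of the dim genes Il5, Il9 and Il13ra2 could not be checked.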
